A study of Mus musculus with 4 samples.

Results

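Of the 10 genes for glutathione synthesis and use examined here, 1 fell in lamin A/C knockdown B16F10 melanoma cells and 9 did not pass the test. Over all tested genes 15.2% passed it and 9.74% were lower, so the count is near the background. Gpx4, whose product reduces lipid peroxides in membranes, fell to 0.681 times its control level by the edgeR test, a call that was lost with DESeq2 and when any of 3 of the 4 libraries was left out. The synthesis genes Gclc, Gclm and Gss, the reductase gene Gsr and the peroxidase gene Gpx1 had log2 fold changes between -0.04 and 0.19. The genes were Gclc, Gclm, Gss, Gsr, Gpx1, Gpx4, Gstp1, Gsto1, Mgst1 and Mgst3. They were chosen by gene symbol, by their known roles, with earlier results of these data known. All 10 were found among the 24421 symbols of the deposited count matrix.

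The data were 4 bulk MARS-seq libraries, a method that counts the 3′ ends of transcripts, from B16F10, a melanoma line of C57BL/6 mice grown with 10% serum. Cells of 2 libraries (shControl 1 and 2) carried a lentiviral control vector that the study lists as empty. Cells of the other 2 (shLmna 1 and 2) carried a lentiviral shRNA that targets Lmna, which encodes the nuclear lamins A and C. Both lines were selected with puromycin at 2.5 µg/ml. Each condition is 1 vector, so the effect of the hairpin cannot be told apart from anything else that differs between these lines, and no source used here says whether replicates were separate cultures. In bulk RNA, less transcript in every cell and a loss from part of the cells cannot be told apart.

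Glutathione is the main small thiol of the cell. Glutamate-cysteine ligase joins glutamate to cysteine, glutathione synthetase adds glycine, and glutathione reductase uses NADPH to return the oxidised form to the reduced one. Peroxidases of the GPX family spend glutathione on hydrogen peroxide and lipid peroxides, and glutathione transferases attach it to reactive compounds. Pigment cells make melanin through reactive quinones, and glutathione and cysteine can bind such quinones. Several of these genes are known targets of NRF2, a transcription factor that binds antioxidant response elements.

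Library totals lay between 2494880 and 3808843 counts, which sets 1 count at 0.268 to 0.396 CPM (counts scaled to library size with TMM factors). Lmna, as a check of the labels, stood at 875 and 719 CPM in shControl and at 131 and 131 CPM in shLmna, a log2 fold change of -2.61 (95% interval -2.92 to -2.29, edgeR adjusted p 7.93e-06). Melanocytic markers summed to between 20117 and 20891 CPM in shControl and to between 21156 and 24602 CPM in shLmna, so the ranges did not overlap, and the part of this in the results below was not tested. Markers of leukocytes, fibroblasts, endothelium and epithelium summed to at most 18.3 CPM a list in any library. Their group ranges did not overlap either. Leukocyte markers summed to 14.7 to 18.3 CPM in shControl and 11.5 to 13.6 CPM in shLmna. Fibroblast markers summed to 7.12 to 7.23 CPM in shControl and 2.37 to 4.90 CPM in shLmna. Endothelial sums were lower and epithelial sums higher in shLmna, all at most 1.34 CPM. Of these markers 1 of leukocytes and 1 of fibroblasts passed the filter on low counts, while Ptprc, Itgam, Dcn, Lum, Cdh5, Kdr, Epcam, Krt5 and Krt14 had 0 counts throughout. An edgeR adjusted p under 0.05 was reached by 15.2% of the 9150 tested genes, 9.74% lower and 5.48% higher in shLmna.

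The question put to these libraries was whether the transcripts of this pathway changed with lamin A/C knockdown. All 10 genes passed the filter on low counts, and counts for single genes ran from 14 to 1351 a library. By the adjusted test 1 of 10 was lower and 0 were higher, near the background shares given above, and the same single gene had an unadjusted p under 0.05, against 30.1% of all tested genes. With the study's limits on fold change and abundance added, 0 of the 10 were called, against 7.64% of tested genes. With DESeq2, 0 of the 10 passed, and over all genes 589 lower and 218 higher of 13616 passed, fewer than with edgeR. The median log2 fold change of the 10 genes was 0.02, and their median absolute log2 fold change was 0.22, against -0.0011 and 0.29 over all tested genes. The summed level of the 10 genes was 992 and 982 CPM in shControl and 964 and 946 CPM in shLmna.

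**Figure D1:**
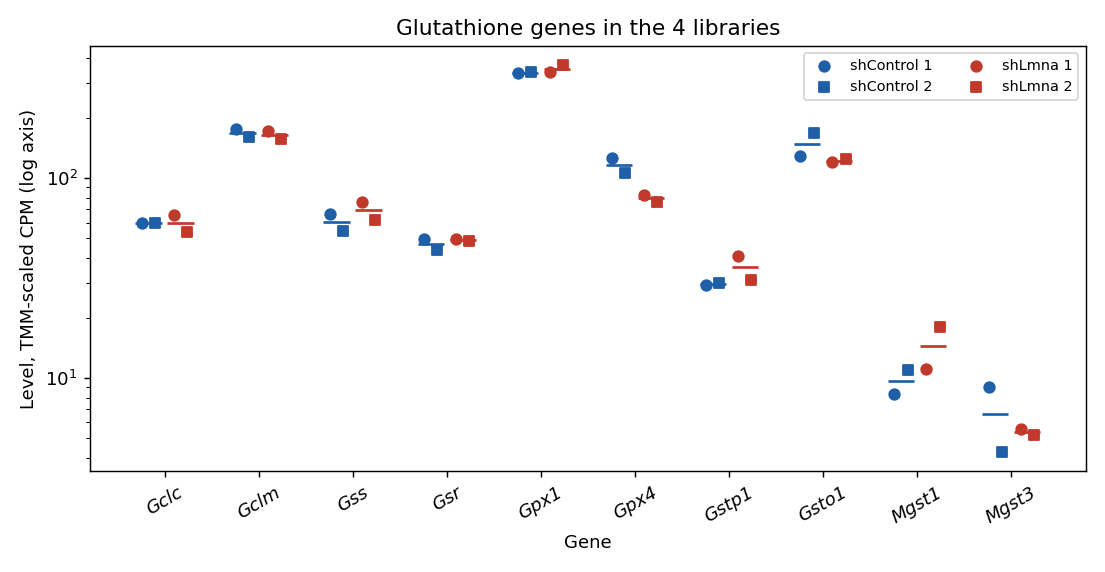
Level of each of the 10 glutathione genes in each library, in TMM-scaled CPM on a log axis, with blue for shControl, red for shLmna, circles for replicate 1, squares for replicate 2 and a line at each group mean (n = 2). Both shLmna libraries lie below both shControl libraries for Gpx4, from 76.0 to 82.7 against 106 to 127 CPM, and for Gsto1. They lie above both for Gstp1 and Mgst1. The groups overlap for Gclc, Gclm, Gss, Gsr, Gpx1 and Mgst3, and of all tested genes 60.1% did not overlap.

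Synthesis genes come first in the pathway. Gclc (chromosome 9, 77754535 to 77794485, plus strand, GRCm38) encodes the catalytic subunit of glutamate-cysteine ligase, the enzyme of the rate-limiting step. Its level was 60.1 and 59.7 CPM in shControl and 65.3 and 53.7 CPM in shLmna. The shControl libraries lay between the shLmna libraries. This gave a log2 fold change of -0.02 (SE 0.155, 95% interval -0.36 to 0.33, edgeR adjusted p 0.955). That value turned to 0.41 when levels were corrected for GC content (adjusted p 0.138).

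Gclm (chromosome 3, 122245557 to 122270732, plus strand) encodes the modifier subunit, which raises the activity of the catalytic one. It stood at 177 and 162 CPM in shControl and 173 and 158 CPM in shLmna. The groups overlapped almost fully. Its log2 fold change was -0.04 (SE 0.123, 95% interval -0.31 to 0.24, edgeR adjusted p 0.875). The count of Gclc over that of Gclm, a ratio within each library that no scaling factor enters, was 0.339 and 0.369 in shControl and 0.378 and 0.340 in shLmna. The ratio of the ligase subunits therefore overlapped between groups too.

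Gss (chromosome 2, 155563181 to 155592810, minus strand) encodes glutathione synthetase, which completes the tripeptide. It was at 66.6 and 54.6 CPM in shControl and 76.3 and 62.1 CPM in shLmna. Replicate 1 was the higher library in both groups, and the groups overlapped. The log2 fold change was 0.19 (SE 0.167, 95% interval -0.19 to 0.56, edgeR adjusted p 0.496). It was 0.04 without shControl 2 or shLmna 1, 0.33 without shControl 1 and 0.35 without shLmna 2. The 3 synthesis genes together summed to 304 and 276 CPM in shControl and 314 and 274 CPM in shLmna.

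Promoter sequence of the members was read from RefSeq windows of 300 bases (GRCm38.p6), which were given for 8 of the 10 genes, Gclc and Gsr being the others. They were searched for the core of the antioxidant response element, written TGACNNNGC, on both strands, and no other motif was searched. A match was found in 2 of the 8 genes, Gclm and Mgst1, against 14% of all 27025 genes with a window. The stretches around both matches are shown because these genes carry the element that was searched for. They are written 5′ to 3′ on the coding strand, with the match in capitals, and both match on the opposite strand. The Gclm stretch lies at chr3:122245398-122245456, with the match starting 134 bases before the RefSeq start. The Mgst1 stretch lies at chr6:138140446-138140504, with the match starting 56 bases before the RefSeq start on which its window is set. That start lies inside the longer GENCODE span of Mgst1 given below, so the match is within the gene by that annotation.
Gclm: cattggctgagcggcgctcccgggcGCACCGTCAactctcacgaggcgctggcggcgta
Mgst1: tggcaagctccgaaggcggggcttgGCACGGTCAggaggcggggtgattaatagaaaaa
A match is a description of these letters and not a measured binding site. Of the genes with a match, Gclm had the log2 fold change of -0.04 given above, and Mgst1 the one of 0.60 given below. Neither passed the adjusted test.

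Gsr (chromosome 8, 33652523 to 33698163, plus strand) encodes glutathione reductase, which keeps the pool reduced. Its level was 49.9 and 43.9 CPM in shControl and 49.4 and 48.5 CPM in shLmna. Both shLmna libraries lay between the shControl libraries. Gsr had a log2 fold change of 0.06 (SE 0.16, 95% interval -0.29 to 0.42, edgeR adjusted p 0.833).

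The peroxidases Gpx1 and Gpx4 are both selenoproteins, built with selenocysteine in the active site. Gpx1 (chromosome 9, 108338903 to 108340343, plus strand) encodes the peroxidase of the cytosol and mitochondria that reduces hydrogen peroxide. It stood at 335 and 342 CPM in shControl and 340 and 368 CPM in shLmna. The groups overlapped. Its log2 fold change was 0.07 (SE 0.12, 95% interval -0.20 to 0.33, edgeR adjusted p 0.760).

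Gpx4 (chromosome 10, 80047166 to 80056439, plus strand) encodes the peroxidase that acts on phospholipid peroxides inside membranes, and it is known for holding back ferroptosis, a form of death through lipid peroxidation. The shControl libraries held 409 and 397 raw counts of it, the shLmna libraries 209 and 279. These were 127 and 106 CPM in shControl against 82.7 and 76.0 CPM in shLmna. Both shLmna libraries were below both shControl libraries, which also held for 30.6% of all tested genes.

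The mean level of Gpx4 went from 116 ± 14.4 CPM to 79.3 ± 4.70 CPM (SD, n = 2). The log2 fold change was -0.56 (SE 0.142, 95% interval -0.87 to -0.24), and the edgeR adjusted p was 0.0273. The level in shLmna was therefore 0.681 times that in shControl, with an interval of 0.546 to 0.848. The count of Gpx4 over that of Gpx1 was 0.378 and 0.311 in shControl and 0.243 and 0.207 in shLmna. This ratio, looked at after the values were seen, needs no scaling between libraries, and its groups did not overlap. That outcome depends on the gene divided by. With Gsto1 in place of Gpx1, shControl 2 fell between the shLmna libraries, so the groups overlapped. Among single tested genes, 30.6% had both shLmna libraries below both shControl libraries, and no such share was taken for ratios. With 2 libraries against 2 an exact permutation test cannot give a two-sided p below 0.333, so none was run.

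The direction of Gpx4 was lower under all 12 alternatives that were run, and the adjusted p was under 0.05 in 8 of them. With DESeq2 the log2 fold change was -0.55 and the adjusted p 0.103. With edgeR, the adjusted p was 0.0502 without shControl 1, 0.121 without shLmna 1 and 0.230 without shLmna 2, and it was 0.00240 without shControl 2. In the deposited batch-corrected log2 values the difference was -0.23. That of Lmna was -1.54 there against -2.61 with edgeR, so sizes on that scale are not comparable with the others. The log2 fold change stayed between -0.68 and -0.42 when 1 library was left out. Such a fit has 1 library in a group, so a call lost there does not show which library decides it.

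**Figure D2:**
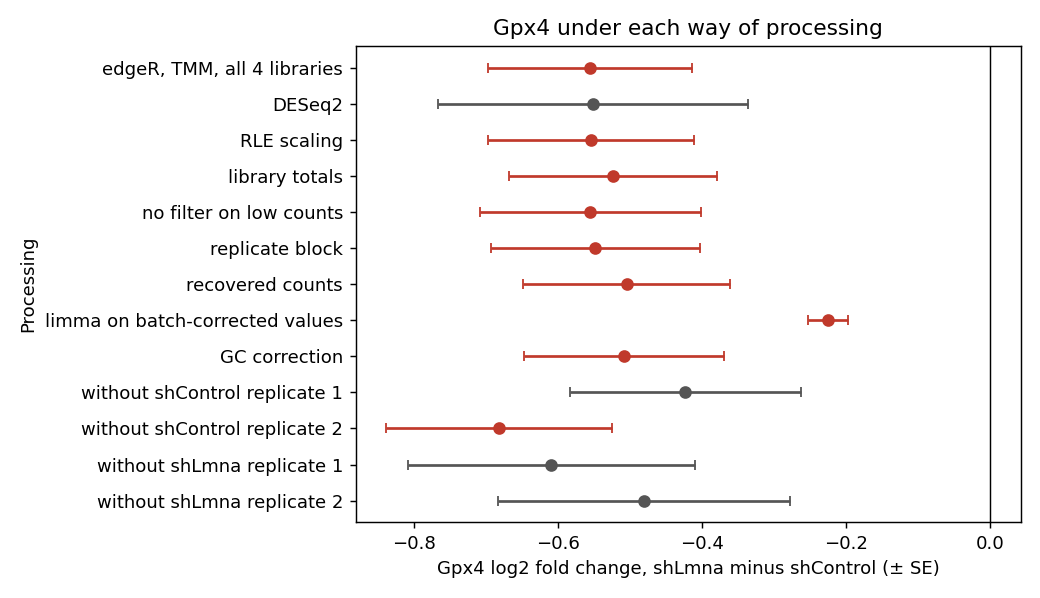
Log2 fold change of Gpx4 (shLmna minus shControl) with its SE, under edgeR with all 4 libraries at the top and the 12 alternatives below, in red where the adjusted p was under 0.05. All values lie below 0, from -0.68 without shControl 2 to -0.23 in the batch-corrected values. The batch-corrected difference was smaller than the edgeR one for Lmna too (-1.54 against -2.61), so its size is not comparable. The 4 grey points are DESeq2, without shControl 1, without shLmna 1 and without shLmna 2.

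Counting is less certain for Gpx4 than for most of the other members. Of the 31-base stretches of its last 995 transcript bases, 66.8% also occur in annotated transcripts of other genes, most of them in the pseudogene Gpx4-ps2. Reads from shared stretches can be dropped or assigned elsewhere, and the count matrix has no row under the symbol Gpx4-ps2. Gstp1 has the same limit, with 67.5% of its stretches found in Gstp2, which had 2 to 3 counts a library. For Gclm and Mgst3 the shared share was 2.78% and 1.44%, and for the other 6 members it was 0.

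Glutathione transferases make up the rest of the list. Gstp1 (chromosome 19, 4035407 to 4037985, minus strand) encodes the pi class enzyme of the cytosol. It was at 29.4 and 30.0 CPM in shControl and 40.7 and 31.1 CPM in shLmna. Both shLmna libraries were above both shControl libraries, by a narrow margin in shLmna 2, and 29.5% of tested genes showed the same. Its log2 fold change was 0.26 (SE 0.203, 95% interval -0.19 to 0.72, edgeR adjusted p 0.430), and it was 0.07 without shLmna 1 and 0.47 without shLmna 2.

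Gsto1 (chromosome 19, 47854970 to 47864790, plus strand) encodes the omega class enzyme, which has thioltransferase and dehydroascorbate reductase activity. It was at 129 and 168 CPM in shControl and 120 and 125 CPM in shLmna. Both shLmna libraries were lower, but shControl 1 lay close to them and shControl 2 well above. The log2 fold change was -0.28 (SE 0.148, 95% interval -0.61 to 0.05, edgeR adjusted p 0.242). Without shControl 1 it became -0.45 with an edgeR adjusted p of 0.0222, and without shControl 2 it became -0.08.

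Mgst1 (chromosome 6, 138140316 to 138156755, plus strand) encodes a membrane-bound transferase of the endoplasmic reticulum and outer mitochondrial membrane that also reduces lipid peroxides. Its raw counts were 27 and 41 for shControl against 28 and 66 for shLmna. In CPM these were 8.36 and 10.98 against 11.07 and 18.0. The groups met almost without a gap, and shLmna 2 stood apart. Mgst1 had a log2 fold change of 0.60 (SE 0.311, 95% interval -0.09 to 1.30, edgeR adjusted p 0.227), and it was 0.20 without shLmna 2. In the batch-corrected values, where the difference of Lmna was smaller too, Mgst1 was 0.11 higher on the log2 scale, with a limma adjusted p of 0.0372.

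Mgst3 (chromosome 1, 167371966 to 167393841, minus strand) encodes a related membrane-bound enzyme. It had the fewest counts of the 10 genes, 29 and 16 for shControl against 14 and 19 for shLmna. In CPM these were 8.98 and 4.28 against 5.54 and 5.18. Both shLmna libraries lay between the shControl libraries. The log2 fold change was -0.29 (SE 0.432, 95% interval -1.26 to 0.67, edgeR adjusted p 0.697), and it turned to 0.32 without shControl 1.

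Groups did not overlap for 4 of the 10 genes, lower for Gpx4 and Gsto1 and higher for Gstp1 and Mgst1, while 60.1% of all tested genes did not overlap. The width of the intervals set what could be seen. For 8 of the 10 genes the 95% interval of the log2 fold change lay within 1 of 0 on either side, so that a doubling or halving lay outside it, and Mgst1 and Mgst3 were the exceptions. For 4 genes, Gclc, Gclm, Gsr and Gpx1, it lay within 0.5. Of the 10 intervals 9 included 0, and differences inside them were not excluded.

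**Figure D3:**
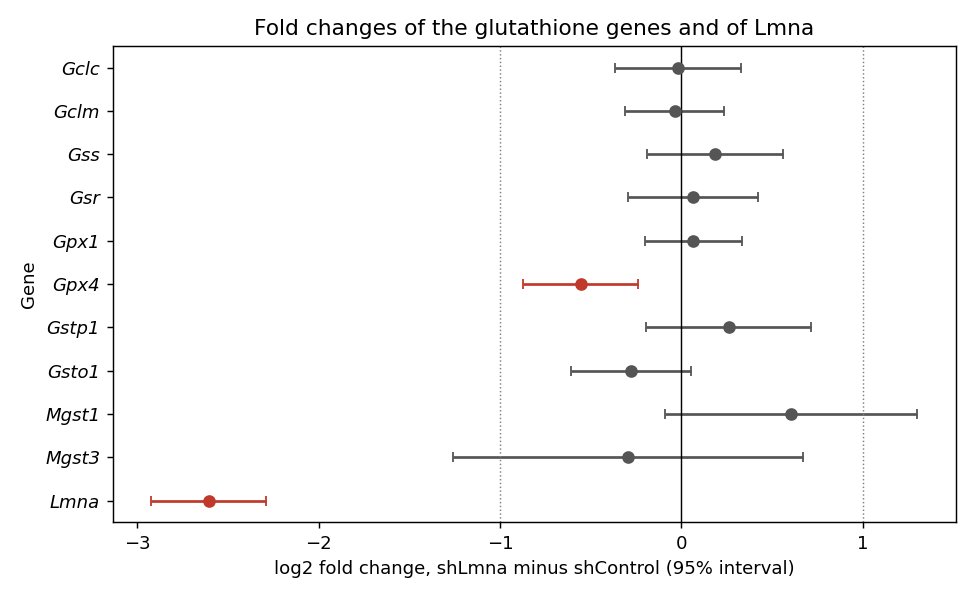
Log2 fold change (shLmna minus shControl) of the 10 glutathione genes and of Lmna, with 95% intervals from the edgeR quasi-likelihood test, in red where the adjusted p was under 0.05, and dotted lines at -1 and 1. The interval of Gpx4, from -0.87 to -0.24, lies below 0 and above that of Lmna, from -2.92 to -2.29, and the other 9 intervals include 0.

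Base composition was examined because calls in this series were frequent among genes with an AT-rich 3′ end. GC content of the last 1000 transcript bases (of fewer bases in Gpx4 and Gstp1, whose transcripts are shorter) ran from 35.9% in Gclc to 60.2% in Gpx4, with a median of 48.9% over the 10 genes and 46.9% over 8808 tested genes with a value. Among the 825 tested genes within 2 percentage points of Gclc, 26.1% were lower and 8.85% higher by the adjusted test, and their median absolute log2 fold change was 0.60. Gclc itself had one of -0.02. Among the 1495 genes near Gsr, at 40.7% GC, 7.89% were lower and 8.23% higher. Around Gpx4 there were 389 such genes, of which 11.6% were lower and 2.83% higher, with a median log2 fold change of -0.17. With a GC correction the value of Gpx4 was -0.51 (edgeR adjusted p 0.0330).

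**Figure D4:**
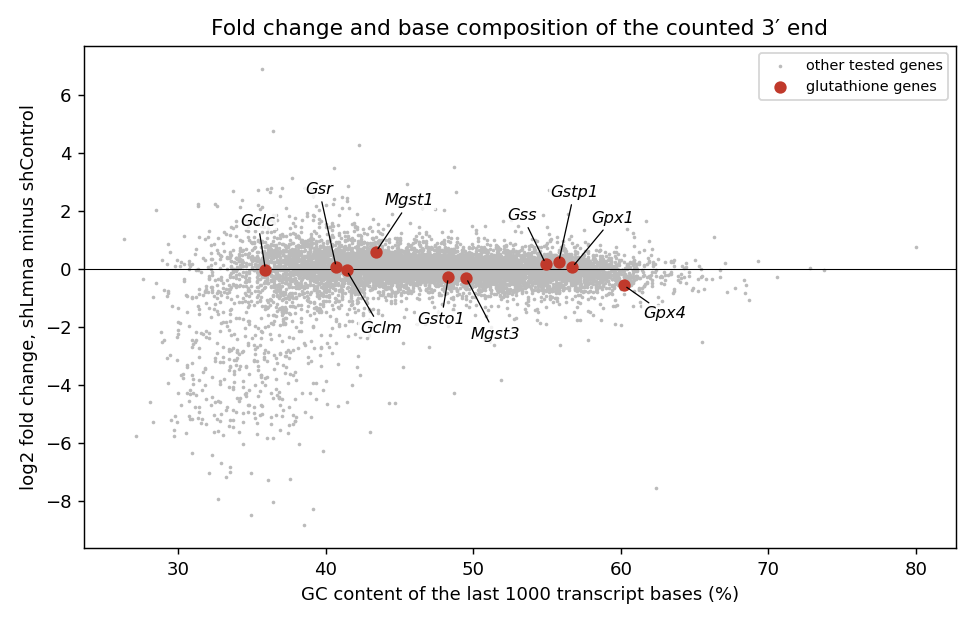
GC content of the last 1000 transcript bases (percent) against log2 fold change (shLmna minus shControl) for 8808 tested genes in grey, with the 10 glutathione genes in red. Gclc lies at the left, at 35.9% GC and a log2 fold change of -0.02, and Gpx4 at the right, at 60.2% and -0.56.

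Genes on the opposite strand overlap the counted 3′ window of 3 members, and no source used here says whether counting used strand. Acss2, which overlaps the window of Gss, had 15 to 24 counts a library, and Cfap43, which overlaps that of Gsto1, had at most 1. Gm17494 overlaps the window of Gclm, and the count matrix has no row under that symbol. Reads of such pairs cannot be told apart without strand.

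Genes around the pathway were taken from 8 lists set by role, with earlier results of these data known. Of their 147 genes 105 were tested. By the adjusted test 3 were lower and 12 higher, which is 14.3% of those tested against the background of 15.2%. The direction differed from the background, where more genes were lower (9.74%) than higher (5.48%). The cause of this was not tested. The share called in each list, in either direction, is given in brackets from here on. The supply of cystine, cysteine, glutamate and glycine had 0 lower and 3 higher of 15 (20%). Among these Slc7a11, the cystine carrier that feeds glutathione synthesis, had 0 and 5 counts for shControl against 15 and 17 for shLmna, with an edgeR adjusted p of 0.0348. Slc1a4, a neutral amino acid carrier, had a log2 fold change of 0.95, and Mat2a, which makes S-adenosylmethionine, one of 0.69.

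Selenoprotein synthesis bears on Gpx1 and Gpx4, and the list that joins it with other peroxidases had 2 lower and 2 higher of 9 (44.4%). Over all tested genes the share was 15.2%. The list is short and was chosen with earlier results of these data known. Sephs2, which makes the selenium donor for selenocysteine, rose by 1.09 on the log2 scale, and Gpx8, a peroxidase of the endoplasmic reticulum, rose by 1.39. Scly, which frees selenium from selenocysteine, was lower, with a log2 fold change of -0.70. Secisbp2l, a relative of a protein that binds selenoprotein messages, had one of -3.12, with 24 and 58 counts for shControl against 4 and 4 for shLmna, and it had -1.35 with the GC correction (edgeR adjusted p 0.0926).

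Of the 15 tested genes in the list of other transferases and related proteins 0 passed with edgeR. An unadjusted edgeR p under 0.05 was reached by 2 of them, against 30.1% of all tested genes. The number that passed was also 0 with DESeq2. It was 1 with no filter, 2 with the replicate block, 1 with the GC correction and 5 with limma on the batch-corrected values. Calls over all genes rose in these 4 settings too. From 891 lower and 501 higher, they went to 1220 and 852 with the replicate block. With limma they went to 1988 and 1793, so the larger transferase counts are not particular to this list. Glutathione breakdown and transport had 1 lower and 0 higher of 14 (7.14%). The lower gene was Chac2, a glutathione-degrading enzyme, with 22 and 31 counts for shControl against 0 and 7 for shLmna. Its log2 fold change was -2.74, and -1.39 with the GC correction (edgeR adjusted p 0.204). Of 11 other glutathione-dependent enzymes 2 were higher (18.2%). Esd (S-formylglutathione hydrolase) rose by 1.15 and Glo1 (glyoxalase) by 0.56 on the log2 scale, and 52.5% of the stretches of Glo1 occur in other genes. Of 14 genes of NADPH supply 2 were higher (14.3%), Me1 (malic enzyme) by 0.75 and Aldh1l2 (a folate enzyme of mitochondria) by 0.88.

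Regulators and other targets of NRF2 had 0 lower and 4 higher of 22 (18.2%). These were Slc7a11 and Me1 again, Nfe2l1, a factor related to NRF2, at 0.63, and Txnrd1, a thioredoxin reductase, at 0.53. Nfe2l2, the gene of NRF2, was picked after its values were seen, and its log2 fold change was -0.31 (95% interval -0.63 to 0.01, edgeR adjusted p 0.175). Of 10 genes of lipid peroxidation and ferroptosis 1 was higher (10%). It was Tfrc, the transferrin receptor, with 11 and 178 counts for shControl against 507 and 626 for shLmna. Its log2 fold change of 2.81 was 1.96 without shControl 1 and 5.74 without shControl 2.

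**Figure D5:**
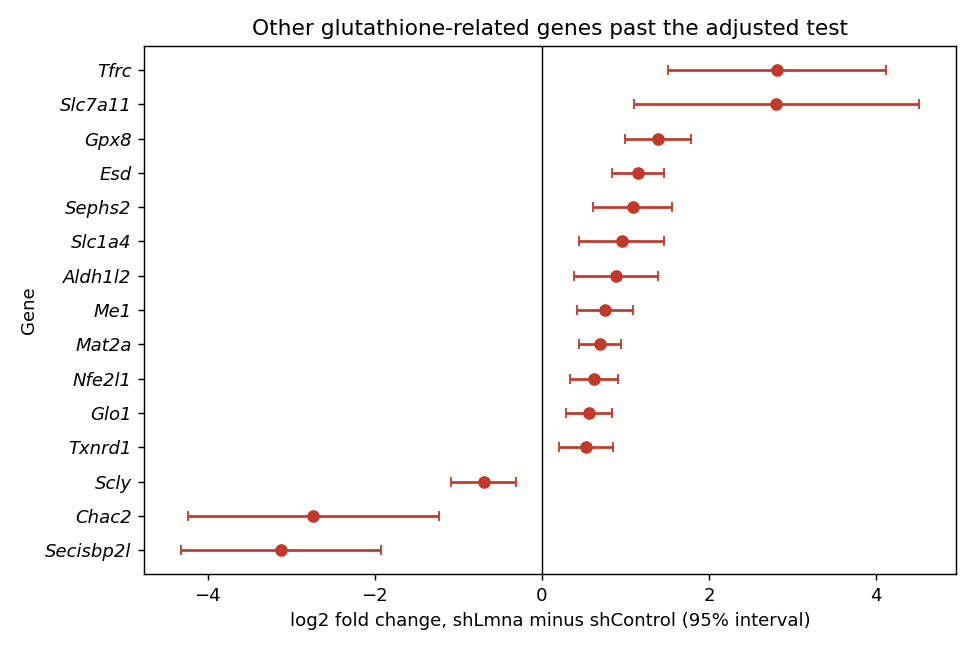
Log2 fold change (shLmna minus shControl) with 95% intervals from the edgeR quasi-likelihood test for the 15 genes of the other lists that had an adjusted p under 0.05. The 12 higher genes run from 0.53 for Txnrd1 to 2.81 for Tfrc, and the 3 lower ones are Scly (-0.70), Chac2 (-2.74) and Secisbp2l (-3.12).

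Of these 15 calls, those of Esd and Gpx8 held with each library left out in turn, and the other 13 were lost without at least 1 library. More of them were lost without a shLmna library than without a shControl library. Calls over all tested genes were also fewer without a shLmna library than without a shControl library. Each of these fits has 1 library in a group, so the losses are not particular to these genes. The log2 fold change of Scly was -0.41 without shControl 1. Without shControl 2 the remaining shControl library held 0 counts of Slc7a11, and without shLmna 2 the remaining shLmna library held 0 of Chac2, so no fold change is given for them there. With DESeq2 the calls of Slc7a11, Slc1a4, Chac2, Aldh1l2 and Tfrc were lost, and with the GC correction those of Chac2, Secisbp2l and Txnrd1. The direction of the 15 genes stayed as given under these alternatives.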

How the data were processed

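The 4 bulk MARS-seq libraries were analysed. Reads were trimmed with cutadapt, aligned to mm10 with STAR 2.4.2a and counted with HTSeq (UTAP pipeline) where they fell in the final 1000 bases of a RefSeq gene or the 100 bases after it. The authors marked duplicates and counted unique molecular identifiers (UMIs). They deposited raw counts per gene symbol, and the sources used here do not name the step at which this table was taken. A second deposited table holds a signal, the gene count divided by a DESeq2 size factor, from which 100% of values gave whole counts (within 0.01), the raw table holding 1.08 to 1.09 times as many, and the authors' p-values, which were not used. Another table holds log2 values the authors had normalized and corrected with ComBat, for batches that were not named.

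Differences were tested with edgeR 4.0.16 (quasi-likelihood F test, two-sided, TMM, filterByExpr, group as the only term, Benjamini-Hochberg over 9150 genes). The study used DESeq2, run here as version 1.42.0 among the alternatives, with limma 3.58.1 for the log2 values. The study's limits were a log2 fold change over 1 in size and a mean normalized count over 5. Replicates differed by more than sampling noise (chi-square per degree of freedom 6.96 and 3.91). Intervals cover the spread between libraries, which may be technical. The test was also tried on simulated counts with known fold changes. These counts did not model GC content, and no result above rests on that run. GC content and shared 31-base stretches came from GENCODE M21 transcripts (GRCm38), 1 per gene, a RefSeq-matched one where given.

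Named by rule are the 10 members, Lmna and genes of the other lists with an adjusted p under 0.05. Outside it are Nfe2l2, genes that share sequence or overlap with members, and cell type markers at 0 counts. Members and lists were chosen with earlier results of these data known. The alternatives were DESeq2, other scalings, no filter, a replicate block, recovered counts, the batch-corrected values, a GC correction and each library left out.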

Additional observations from a re-analysis of the deposited data

How the results depend on the processing

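Lmna was lower and past the threshold under all 12 alternatives. Of the 10 glutathione genes 1 was lower and 0 higher; 0 were lower with DESeq2, and 1 was higher (Mgst1) in the batch-corrected values. Between 0 and 1 were lower when 1 library was left out. Gclc (-0.02) turned to 0.014 with library totals, 0.020 with recovered counts, 0.0083 in the batch-corrected values and 0.41 with the GC correction, and ranged from -0.15 to 0.14 with 1 library left out. Gsr turned to -0.042 with the GC correction. With 1 library left out Gclm ranged from -0.11 to 0.041, Gsr from -0.030 to 0.16, Gpx1 from 0.02 to 0.13 and Mgst3 from -0.75 to 0.32. Their adjusted p stayed over 0.05 in each of these fits.

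In the other lists, 3 lower and 12 higher calls became 9 and 20 with no filter and 17 and 33 in the batch-corrected values, and with 1 library left out they ranged from 1 to 11 lower and from 2 to 17 higher. Over all tested genes, 891 lower and 501 higher calls became 589 and 218 with DESeq2 and 1988 and 1793 in the batch-corrected values, and with 1 library left out they ranged from 414 to 1329 lower and from 89 to 775 higher. Leaving out a library removes replication, and the cause of the other shifts was not tested. In the batch-corrected values 52.6% of calls were lower, against 64.0%. Without shLmna 1 or shLmna 2 it was 78.6% or 82.3%.

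The labels give both groups the same replicate numbers without saying that they pair samples, and deviations of same-numbered libraries had a correlation of 0.013 across genes. A replicate block gave 9 lower and 21 higher calls in the other lists and 1220 lower and 852 higher calls over all genes, and of the 10 glutathione genes it called Gpx4 alone (edgeR adjusted p 0.00196), as without it. Depth limits Mgst1 and Mgst3 the most among the 10 genes, with 14 to 66 counts a library and the widest intervals.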
